A study of Saccharomyces cerevisiae with 31 samples.

Results

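The comparison of spt6-1004 with wild-type (WT) RNA in budding yeast, *Saccharomyces cerevisiae*, is described here through the 694 genes that the authors' deposited table lists for it, of 5668 genes whose p-values had been adjusted. A gene is listed when its DESeq2 p-value, adjusted by the Benjamini-Hochberg method, was under 0.05. The listed gene nearest to that threshold was NCE103, a carbonic anhydrase, with an adjusted p of 0.0498 from DESeq2, and genes on the other side of it have no value. Of the 5668 genes, 319 were listed as higher in spt6-1004, a share of 5.63%, and 375 as lower, a share of 6.62%, which makes 12.2% in either direction. Every fold change, standard error (SE), base mean and adjusted p given here is the authors' own, and "listed at" gives a gene's log2 fold change of spt6-1004 over WT in the authors' deposited table.

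Both groups were yeast cultures grown in YPD, a rich medium with glucose, at 30 °C, and RNA was sequenced from 3 libraries of spt6-1004 and 3 of WT. The series holds another 3 RNA libraries each of spt6-S8A and spt6-S8E, which are also alleles of SPT6, and asks about phosphorylation of Spt6 by casein kinase 2. The labels name spt6-1004 only by its allele and give no strain background, and nothing says whether replicates were separate cultures. The p-values therefore measure a spread between libraries that may be technical. In every row the base mean times 12 was whole, so the fit appears to span all 12 RNA libraries. The spread behind each SE and p-value may then include spt6-S8A and spt6-S8E. Whole values in every row would not arise had counts been divided by a depth factor per library within the fit. Whether depth was corrected before the fit is not given, so fold changes and counts by direction may carry differences in depth. The table holds no value per library and no depth, so the spread of each gene is known only through its SE, which ran from 0.138 to 0.537 on the log2 scale with a median of 0.349. The base mean, which DESeq2 averages over the libraries of a fit and which is not known to be scaled by gene length, ran from 0.833 to 1096 with a median of 21.2.

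Spt6 is an elongation factor and histone chaperone that travels with RNA polymerase II and puts nucleosomes back behind it. Loss of its function is known in yeast to open promoters inside coding regions and to let transcription start where it normally does not. The spt6-1004 allele is a temperature-sensitive deletion inside the coding sequence that is widely used to study these functions. SPT6 itself was not listed, nor were SPN1, which encodes the binding partner of Spt6, and the casein kinase 2 genes CKA1, CKA2, CKB1 and CKB2. The gene-level table cannot show which part of the SPT6 transcript was present, so it does not check the allele. Nor can it tell full-length RNA of any gene, such as STE11 below, from RNA started inside the coding region.

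Listed increases were larger, and at genes with lower base means, than listed decreases, with a median base mean of 12.4 against 30.8. The median log2 fold change was 1.64 for the 319 higher genes and -1.29 for the 375 lower genes, and the listed range was -3.40 to 5.28. The change was at least 2-fold for 295 higher genes and 307 lower genes, and the smallest listed change in either direction was 0.52 in size. Ribosomal proteins, the general stress response, chaperones of heat shock factor and glycolysis held 192 listed genes, 72 higher and 120 lower, and these 4 lists are set aside below. Outside them stood 494 genes that are nuclear or have no known position, and 8 genes of the mitochondrial chromosome. Of the 494, 240 were higher, with a median of 1.49, and 254 lower, with a median of -1.19.

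The 494 genes split by level. Below a base mean of 10, 125 were higher and 16 lower. Between 10 and 50, 103 were higher and 167 lower, and from 50 upward 12 were higher and 71 lower. A low gene needs a larger fold change than an abundant one to be listed, so these counts describe what the table lists and not how often low genes changed.

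**Figure D1:**
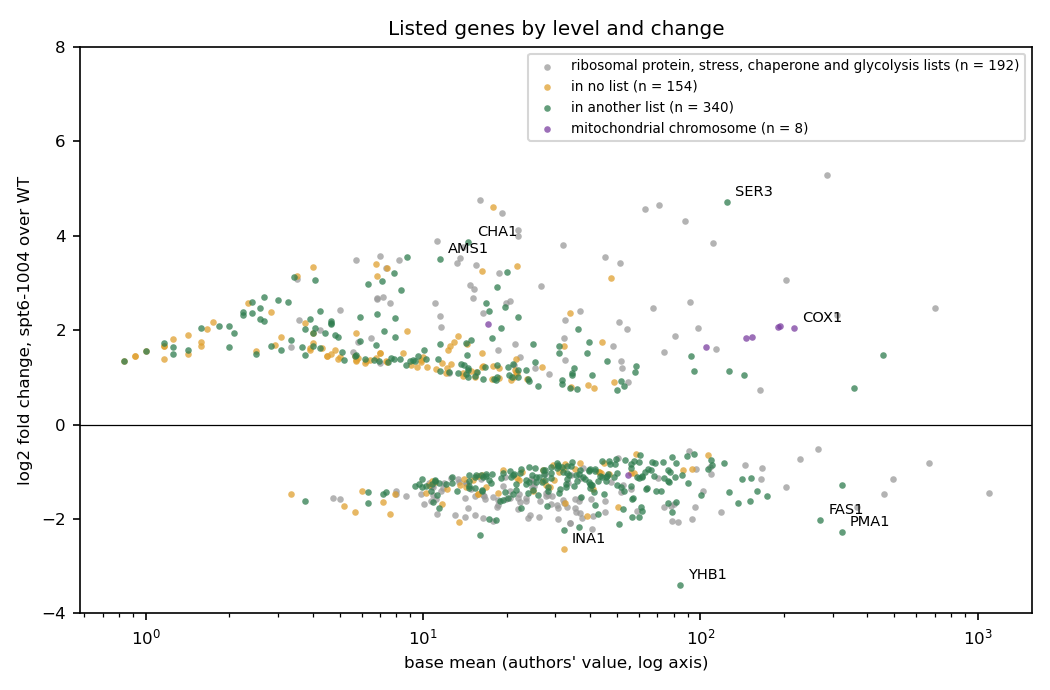
Log2 fold change of spt6-1004 over WT against the authors' base mean, on a log axis, for the 694 listed genes, 1 point per gene, coloured by whether a gene lies in the 4 lists set aside, in another list, in no list or on the mitochondrial chromosome. The empty band around 0 holds the genes that were not listed, it widens towards low base means, and most points at the far left lie above 0.

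The largest increase outside those lists was that of SER3, which encodes the 3-phosphoglycerate dehydrogenase that opens serine synthesis (chromosome V, 322686 to 324095, plus strand, assembly R64). SER3 is known in yeast as a gene held low by transcription of a non-coding RNA, SRG1, through its promoter. It was listed at 4.71 (SE 0.29, 95% interval 4.15 to 5.27), 26.1-fold, with a DESeq2 adjusted p of 5.85e-57 and a base mean of 124, whereas no other nuclear gene outside the lists with a base mean of at least 50 went above 1.48. YDL218W followed at 4.62 (base mean 17.9). CHA1, the deaminase through which cells use serine and threonine as nitrogen, was listed at 3.87 (SE 0.45, 14.6-fold), so a gene for making serine and a gene for degrading it were both among the largest increases.

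The next increases were spread over unrelated functions. The seripauperin gene PAU23 was listed at 3.54, the vacuolar mannosidase gene AMS1 at 3.50, and CSS1 at 3.39. HPF1, a cell wall mannoprotein gene, was listed at 3.37 and the low-affinity glucose transporter gene HXT3 at 3.24 (SE 0.39). PIR3, for another wall protein, stood at 3.22, and the open reading frames YBL005W-B, YMR090W and YJR096W stood at 3.34, 3.31 and 3.25. YBL005W-B is a frame of a Ty retrotransposon, whose copies can share reads, so its own value is uncertain. Base means of these 9 genes were between 4 and 21.8, all far below that of SER3.

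The decreases were smaller but included genes with some of the highest base means. YHB1, the flavohemoglobin that detoxifies nitric oxide (chromosome VII, 959904 to 961103, plus strand), was listed at -3.40 (SE 0.29, 95% interval -3.96 to -2.83), 10.5-fold lower, with a DESeq2 adjusted p of 3.97e-29. PMA1, the essential plasma membrane proton pump (chromosome VII, 479910 to 482666, minus strand), was listed at -2.28 (SE 0.19) with a base mean of 323 and a DESeq2 adjusted p of 5.59e-30. FAS1, the beta subunit of fatty acid synthase (chromosome XI, 100671 to 106826, plus strand), was listed at -2.02 (SE 0.21) with a base mean of 270 and a DESeq2 adjusted p of 2.37e-20. INA1 at -2.64, SFG1, for a factor of pseudohyphal growth, at -2.35, and the elongation factor 2 gene EFT2 at -2.24 also stood among the 12 largest decreases. Another 4 of the 12, SCW4 at -2.18, EGT2 at -2.12, SUN4 at -2.02 and SCW11 at -2.00, encode wall proteins. The others were PGM1, a phosphoglucomutase gene, at -2.06 and SSB2, for a ribosome-bound chaperone, at -1.97.

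The genes were then read against 60 further gene lists, whose annotated members were taken as tested, so each share can be set beside 5.63% higher and 6.62% lower over all genes. At least 5 members were listed in 39 of them. In 5 of the 39 every listed member was lower and in 6 every listed member was higher. Both directions occurred in 37 of the 60 lists, and the mitochondrial ribosomal proteins had none of 77 members listed.

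**Figure D2:**
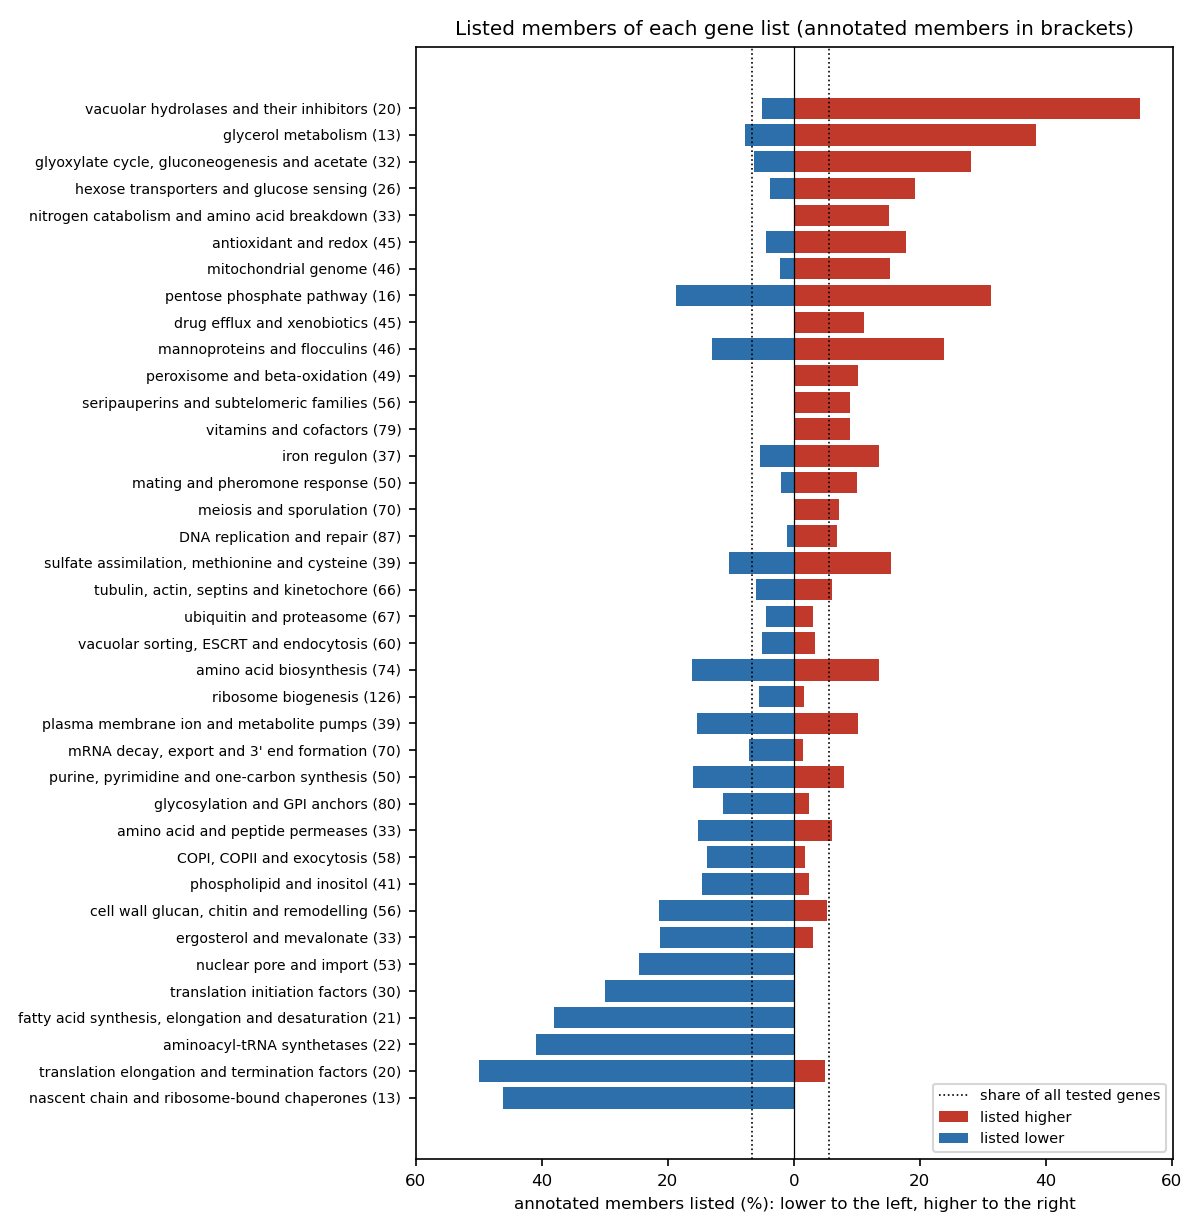
Percent of annotated members of each of 38 gene lists with at least 5 listed members that were listed higher (red, to the right) or lower (blue, to the left) in spt6-1004, with the share of all tested genes in each direction as dotted lines at 5.63% and 6.62%. Translation, fatty acid and nuclear transport lists extend to the left and vacuolar, glycerol and glyoxylate lists to the right.

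Genes of the translation apparatus other than ribosomal proteins were listed almost only as lower. Initiation factors had 9 of 30 members lower (30.0%) and none higher, with a median of -1.01. TIF1, the eIF4A helicase, was listed at -1.49, the eIF3 subunit gene NIP1 at -1.19 and the helicase gene DED1 at -1.04. Elongation and termination factors had 10 of 20 members lower, with a median of -1.21 among them, and the subunits of elongation factor 1, TEF4 and EFB1, were listed at -1.84 and -1.80. YEF3, for the fungal elongation factor 3, was listed at -1.29 (SE 0.16) at a base mean of 324. The exception was its paralog HEF3, listed at 1.85 (SE 0.50) at a base mean of 4.92. Near-identical copies such as TIF1 and TIF2 or EFT1 and EFT2 can share reads, so their own values are uncertain.

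The enzymes that charge tRNAs and the chaperones that receive the growing chain followed the same direction. Aminoacyl-tRNA synthetases had 9 of 22 members lower (40.9%) and none higher, led by the valine, asparagine, glycine and glutamate enzymes VAS1 at -1.44, DED81 at -1.31, GRS1 at -1.22 and GUS1 at -1.14. The list of chaperones bound to the ribosome or the nascent chain had 6 of 13 members lower (46.2%) and none higher. They included the Hsp70 genes SSB2 and SSB1 at -1.97 and -1.33 and both subunits of the nascent polypeptide complex, EGD2 at -1.49 and EGD1 at -1.43. The others were the Hsp40 gene ZUO1 at -1.19 and ARB1, for an ATPase and not a chaperone, at -1.12. Ribosome biogenesis stood apart from them, with 7 of 126 members lower (5.56%) and 2 higher (1.59%), close to or under the shares of all genes. Its lowest members were the pre-rRNA processing genes UTP10 at -1.75 and UTP20 at -1.34.

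Nuclear transport had the most members listed in a single direction outside the 4 lists set aside. Of 53 annotated pore and transport genes, 13 were lower (24.5%) and none higher, with a median of -1.09. The importin KAP123, which carries ribosomal proteins into the nucleus (chromosome V, 378762 to 382103, minus strand), was listed at -1.64 (SE 0.23) with a DESeq2 adjusted p of 4.92e-11. Its relatives KAP122 and PSE1 were listed at -1.60 and -0.80, and the tRNA exporter LOS1 at -1.39. GSP1, the Ran GTPase that gives transport its direction, was listed at -1.09 and NTF2, its import factor, at -1.32. Of the pore proteins, NUP157 at -1.20, NUP100 at -1.12, NUP188 at -1.09 and NUP120 at -1.09 had the lowest values, and NUP145, NUP170 and NUP192 lay between -0.87 and -0.82.

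Genes of membrane lipid synthesis were listed mostly lower. Of 21 genes of fatty acid synthesis, elongation and desaturation, 8 were lower (38.1%) and none higher, with a median of -1.60. They covered acetyl-CoA supply (ACS2, -1.72), its carboxylation (ACC1, -1.51, SE 0.20), both subunits of the synthase (FAS1, -2.02, and FAS2, -1.67), chain elongation (ELO2, -1.42, ELO3, -1.31, and PHS1, -1.62) and desaturation (OLE1, -1.58). In ergosterol and mevalonate synthesis 7 of 33 were lower (21.2%), among them the lanosterol demethylase gene ERG11 at -1.56, the synthase and reductase genes ERG13 at -1.46 and HMG1 at -1.25, and the late-step genes ERG4 at -1.47 and ERG25 at -1.27. MVD1, for mevalonate decarboxylase in the same pathway, was the only higher member, at 0.81. Phospholipid genes had 6 of 41 lower (14.6%), led by CPT1 at -1.63, and 1 higher, INO1, which makes inositol phosphate, at 1.66.

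The early secretory pathway, which delivers membrane and wall proteins, was also listed mostly lower. COPI, COPII and exocytosis genes had 8 of 58 lower (13.8%), and these included the COPII coat subunits SEC23 at -1.71 (SE 0.28), SEC24 at -0.98 and SEC31 at -0.97, the COPI subunit COP1 at -0.96 and the fusion ATPase SEC18 at -1.14. SEC8, an exocyst subunit, was higher at 1.16. Endoplasmic reticulum genes had 4 of 49 lower (8.16%), close to the share of all genes. They were SEC61 at -1.30 and SSH1 at -1.11, which encode the pore-forming subunits of the translocons, SEC72 at -1.18, and HAC1, the factor of the unfolded protein response, at -1.40. Glycosylation genes had 9 of 80 lower (11.2%), with the dolichol mannose synthase gene DPM1 at -1.76 and the O-mannosyltransferase genes PMT4, PMT2 and PMT1 at -1.41, -1.10 and -1.06. The Golgi mannosyltransferase genes OCH1 and MNN1 were the higher ones, at 1.02 and 1.05.

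The 2 lists of cell wall genes differed in direction. Of 56 genes that build or remodel glucan and chitin, 12 were lower (21.4%) and 3 higher (5.36%). The glucan synthase genes FKS1 and GSC2 were both lower, at -1.41 and -1.50, while the related FKS3 was listed at 1.42. Chitinase, CTS1, which separates the cells after division, was listed at -1.84. The list of mannoproteins and flocculins pointed the other way, with 11 of 46 higher (23.9%) and 6 lower (13.0%). Its higher members included the abundant HSP150 at 1.48 (SE 0.26, base mean 456) and CWP2 at 0.78 (SE 0.18, base mean 357). They also included PRY1 at 1.20 and PRY2 at 1.13, for secreted proteins, and SPI1 at 2.21, which belongs also to the lists set aside.

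**Figure D3:**
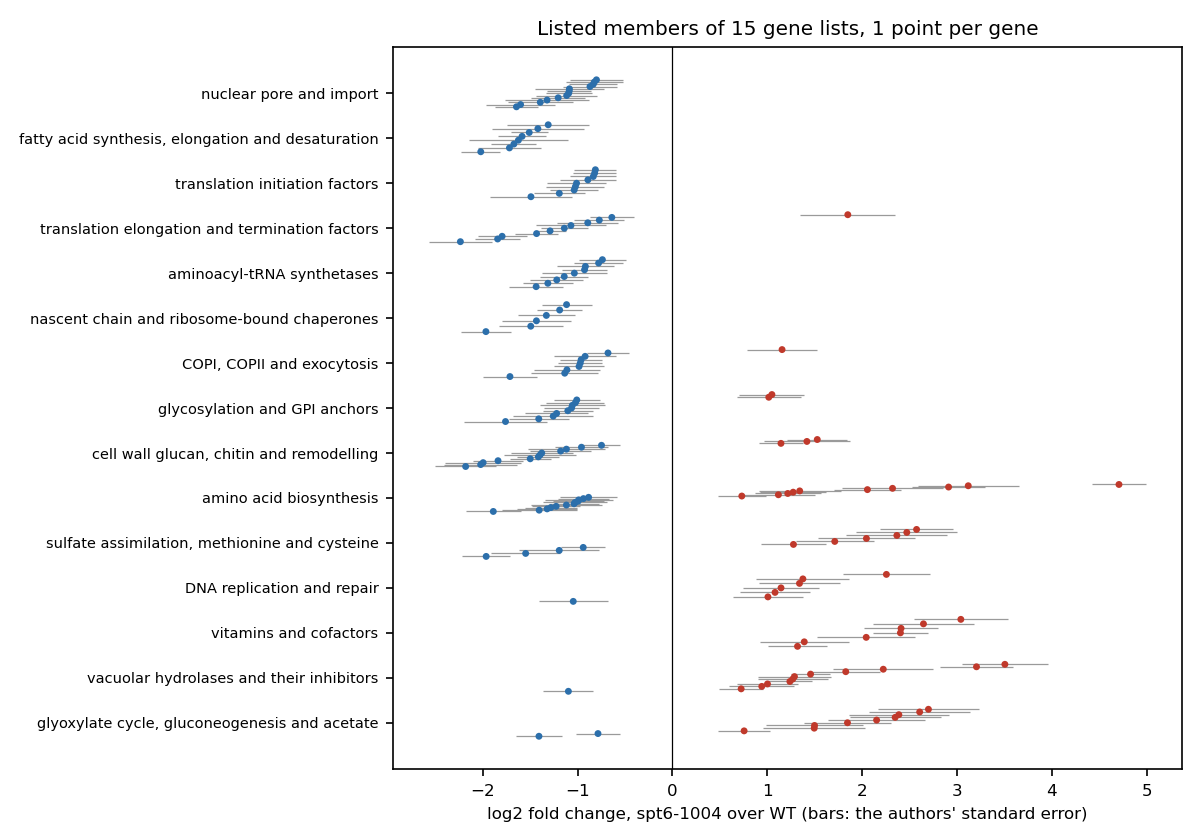
Log2 fold change of spt6-1004 over WT for the listed members of 15 gene lists, 1 point per gene with the authors' SE as a bar, red for higher and blue for lower. Nuclear transport, fatty acid, initiation, synthetase and nascent chain lists have points on the lower side only, amino acid and sulfur lists have points on both sides, and the vacuolar and glyoxylate lists lie mostly on the higher side.

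The vacuole showed different directions for its enzymes and its proton pump. Of 20 vacuolar hydrolases and their inhibitors, 11 were higher (55.0%), a group that includes the aspartyl protease PEP4, which activates the other proteases, at 1.24 (SE 0.23), the carboxypeptidase CPS1 at 1.46 (SE 0.21), the aminopeptidases LAP3 at 1.29 and APE1 at 1.27, and AMS1 at 3.50. Inhibitor genes were higher as well, with TFS1, for an inhibitor of carboxypeptidase Y, at 3.21, PAI3, for an inhibitor of proteinase A, at 2.22, and PBI2, for an inhibitor of proteinase B, at 0.94. TFS1 and PAI3 belong also to the stress list. The gene for carboxypeptidase Y itself, PRC1, was the only lower member, at -1.10 (SE 0.26). The vacuolar ATPase had 4 of 20 subunits lower (20%) and none higher, VMA5 at -1.30, VMA1 at -1.12, VPH1 at -1.09 and VMA3 at -0.96. Autophagy genes had 2 of 35 higher, near the share of all genes.

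Amino acid biosynthesis genes were listed in both directions. Of 74 biosynthetic genes 10 were higher (13.5%) and 12 lower (16.2%). Lysine synthesis was among the higher, with LYS1 at 2.91 and LYS9 at 2.06, and so were LEU2 at 3.12 and the minor glutamate dehydrogenase gene GDH3 at 2.32. Among the lower were THR1 at -1.89, for threonine synthesis, ARO4 at -1.40, for the first step towards aromatic amino acids, GLN1 at -1.28 and GLT1 at -1.23, for ammonium assimilation, and ILV2 at -0.94. Aromatic synthesis held both directions, since ARO1 and ARO2 were at -0.99 and TRP2 and ARO8 at 1.12 and 0.73. GCN4, the activator of most of these pathways, was itself listed at -1.32 (SE 0.32). LEU2, URA3 at 1.34 and MET17 at 1.28 are common strain markers, and the labels do not give the genotype at these loci. LEU2 and URA3 also had low base means, 3.42 and 0.833.

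Sulfur metabolism genes were also listed in both directions. Of 39 genes, 6 were higher (15.4%) and 4 lower (10.3%). The higher genes take sulfur in and carry it to methionine: the sulfate permease gene SUL1 at 2.37, the sulfite reductase subunit gene MET10 at 1.71, MET17 at 1.28, STR3 at 2.04, JLP1, for sulfonate use, at 2.47, and the methionine synthase gene MET6 at 2.57. STR3, SUL1 and JLP1 had base means of 1.58 to 2.58, and without genes of a base mean under 10 the lower members of the list outnumbered the higher. The lower genes included those that make and recycle S-adenosylmethionine, with SAM1 at -1.19, SAH1, which clears S-adenosylhomocysteine, at -1.96 (SE 0.26) and the adenosine kinase gene ADO1 at -1.55. CYS3, which turns cystathionine into cysteine, was listed at -0.94.

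Genes for the uptake and breakdown of nitrogen sources held both directions. Of 33 genes of nitrogen catabolism 5 were higher (15.2%) and none lower: CHA1, the proline oxidase PUT1 at 2.14, the general permease GAP1 at 1.59, the GATA factor GAT1 at 1.48 and the glycine decarboxylase subunit GCV2 at 1.45. All but CHA1 had base means under 10. Of 33 amino acid and peptide permeases 5 were lower (15.2%, against 6.62% of all genes) and 2 higher (6.06%). The lower ones were the amino acid permeases TAT2 at -1.31, TAT1 at -1.23, GNP1 at -1.20 and BAP2 at -1.15 and the peptide transporter PTR2 at -1.37. GAP1 and the oligopeptide transporter OPT2, at 2.09, were higher, but at base means of 3.08 and 2.

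Nucleotide synthesis had 8 of 50 members lower (16%), among them URA2 at -1.15, which starts pyrimidine synthesis, and 4 higher. RNR3, the ribonucleotide reductase subunit known to be switched on by DNA damage, was listed at 2.23 (SE 0.52, base mean 3.92). DNA replication and repair had 6 of 87 higher (6.90%) and 1 lower (1.15%), so its higher share was near that of all genes. The higher members were the nucleotide excision repair genes RAD4 at 2.26, RAD2 at 1.08 and RAD26 at 1.14, and the checkpoint and break repair genes RAD53 at 1.34, RAD24 at 1.38 and RAD50 at 1.01. The replicative helicase subunit MCM3 was lower, at -1.05.

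Genes known to be repressed by glucose were among those listed higher. In the glyoxylate cycle, gluconeogenesis and acetate list 9 of 32 were higher (28.1%), with a median of 1.85 over the listed members. Both glyoxylate cycle enzymes, MLS1 at 2.70 and ICL1 at 2.35, the lactate genes CYB2 at 2.61 and JEN1 at 2.39, and the activator CAT8 at 1.85 were among them. These 5 had base means under 10, the median base mean of the listed members was 4.67, and without genes under 10 more members were lower than higher. The 2 lower members (6.25%) were ALD6 at -1.41 and PYC1 at -0.78, with base means of 72.2 and 66.8. Peroxisomal beta-oxidation had 5 of 49 higher (10.2%) and none lower, of which 1, PCS60, had a base mean of at least 10, with FOX2 at 1.69, POT1 at 1.56 and the carnitine acetyltransferase gene CAT2 at 1.95. The tricarboxylic acid cycle had 3 of 23 higher, CIT1 at 1.70, IDH2 at 1.01 and ACO1 at 0.93, while nuclear genes of the respiratory chain had 1 higher and 2 lower of 57.

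Sugar transporters and minor carbon pathways held both directions. Hexose transporter and glucose sensing genes had 5 of 26 higher (19.2%) and 1 lower, but only 1 higher and 1 lower member had a base mean of at least 10. HXT3, HXT5 and HXT1 were listed at 3.24, 2.98 and 2.09, and HXT4, which lies close to HXT1 on chromosome VIII, at -1.25 (SE 0.30). Glycerol metabolism had 5 of 13 higher (38.5%), with the dihydroxyacetone kinase genes DAK2 at 2.60 and DAK1 at 2.03 and the synthesis genes GPD1 at 2.37 and GPP2 at 2.27, and GPD1 is also a stress response gene. The pentose phosphate pathway had 5 of 16 higher (31.2%) and 3 lower (18.8%). Its largest increases, TKL2 at 4.76, GND2 at 4.49, NQM1 at 3.76 and SOL4 at 3.31, belong also to the stress list.

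Metal, vitamin and redox genes added smaller groups. The vitamin and cofactor list had 7 of 79 higher (8.86%) and none lower, with biotin synthesis represented by BIO4 at 2.65, BIO2 at 2.41 (SE 0.39) and BIO3 at 2.04, and vitamin B6 synthesis by SNZ1 at 3.04. The biotin permease gene VHT1 was listed at 1.40. PNC1 at 2.40, another of the 7, belongs also to the lists set aside. In the iron regulon FTR1 and FET3, which form the high-affinity uptake complex, were both lower at -1.40, whereas the reductase FRE2, the wall protein FIT3 and the low-affinity transporter FET4 were higher at 2.19, 2.49 and 1.36. PHO84, the high-affinity phosphate transporter, was listed at 3.06, the acid phosphatase PHO3 at -1.66 and the zinc transporter ZRT1 at 2.20, and PHO84 and ZRT1 had base means of 4.08 and 2.67. Antioxidant genes had 8 of 45 higher (17.8%) and 2 lower (4.44%), YHB1 at -3.40 and the thioredoxin TRX1 at -1.15. The largest of the higher, CTT1 at 3.39, belongs also to the lists set aside.

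Regulators of transcription and chromatin were listed rarely. RNA polymerase II, elongation and histone chaperone genes had 2 of 56 members in each direction, remodellers 2 of 50 higher, and SAGA, Mediator and general factors 1 higher and 2 lower of 69, all shares under those of all genes. TRA1, the large subunit shared by SAGA and NuA4 (chromosome VIII, 302761 to 313995, plus strand), was listed at -1.62 (SE 0.21), while SPT7, another SAGA subunit, was listed at 0.83. The remodeller CHD1 and the histone-binding factor SPT2 were higher at 1.51 and 1.38, and NHP6A and NAP1, which also handle nucleosomes, were lower at -1.27 and -0.84. Of 11 histone genes HTB2, for histone H2B, was listed, at -1.36. In mRNA decay and export 5 of 70 genes were lower (7.14%), among them DHH1 at -1.77 and PAT1 at -1.18, which act together in decapping, and the deadenylase CCR4 at -1.05, whereas the nuclear exonuclease RAT1 was higher at 0.78.

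Cytoskeleton and meiosis lists had shares near those of all genes. Tubulin, actin, septin and kinetochore genes had 4 of 66 members listed in each direction (6.06%). ACT1 was listed at -1.23 (SE 0.21), profilin, PFY1, at -1.25, and the tubulin genes TUB1 and TUB2 at -1.22 and -1.16. The cohesin subunits SMC1 and IRR1 and the centromere protein MIF2 were higher at 1.22, 1.04 and 1.35. Meiosis and sporulation genes had 5 of 70 higher (7.14%) and none lower, all at base means under 10, led by the spore wall gene DIT1 at 2.85 and RIM4 at 1.94, with IME2, a kinase of meiotic entry, at 1.64. Mating genes had 5 of 50 higher (10%) and 1 lower, PRM7 at -1.34. The higher ones included the kinase STE11 at 1.80 and the agglutinin anchor AGA1 at 1.57. The receptor STE2, made by cells of mating type a, was listed at 0.87, and the other mating type markers examined, MFA1, MFA2, STE3, MF(ALPHA)1 and MF(ALPHA)2, were not listed.

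Of 46 genes of the mitochondrial chromosome, 7 were listed higher (15.2%) and 1 lower. COX1, for a subunit of cytochrome oxidase, was listed at 2.05 (SE 0.21, base mean 218), and the intron reading frames AI1 to AI5_ALPHA inside it at 1.64 to 2.10. These frames start with COX1 at position 13818 and can share its reads, so they are not separate observations. ATP6, for a subunit of ATP synthase, was listed at 2.14 and COX2 at -1.06 (SE 0.30).

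Many yeast proteins have a close relative encoded by another gene, and 63 such pairs, called isoform pairs here, were examined. They include enzymes, chaperones, transporters and histones. Some hold a main and a minor form, and others hold near-identical copies. Both members were listed in 18, in opposite directions in 13 and in the same direction in 5. In 5 of the 13 neither member belongs to the 4 lists set aside, and the other opposite pairs include stress, chaperone or glycolysis genes. In 12 of the 13 the lower member had the higher base mean of the pair, the exception being PGM1 at -2.06 (SE 0.43) and PGM2 at 3.99. The main proton pump PMA1 stood at -2.28 and its rarely used copy PMA2 at 1.46, and GPP1 at -1.11 against GPP2 at 2.27. The cytosolic acetaldehyde dehydrogenase ALD6 was listed at -1.41 against 0.76 for the mitochondrial ALD4, TAL1 at -1.52 against 3.76 for NQM1, and PDC1 at -1.46 against 3.58 for PDC6. In 30 pairs 1 member was listed, 14 higher and 16 lower, and in 15 neither was. The base mean is not a WT level, so it does not rank the members within WT. The 494 genes outside the 4 lists split by level in the same direction, and whether the pairs differ from them was not tested.

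**Figure D4:**
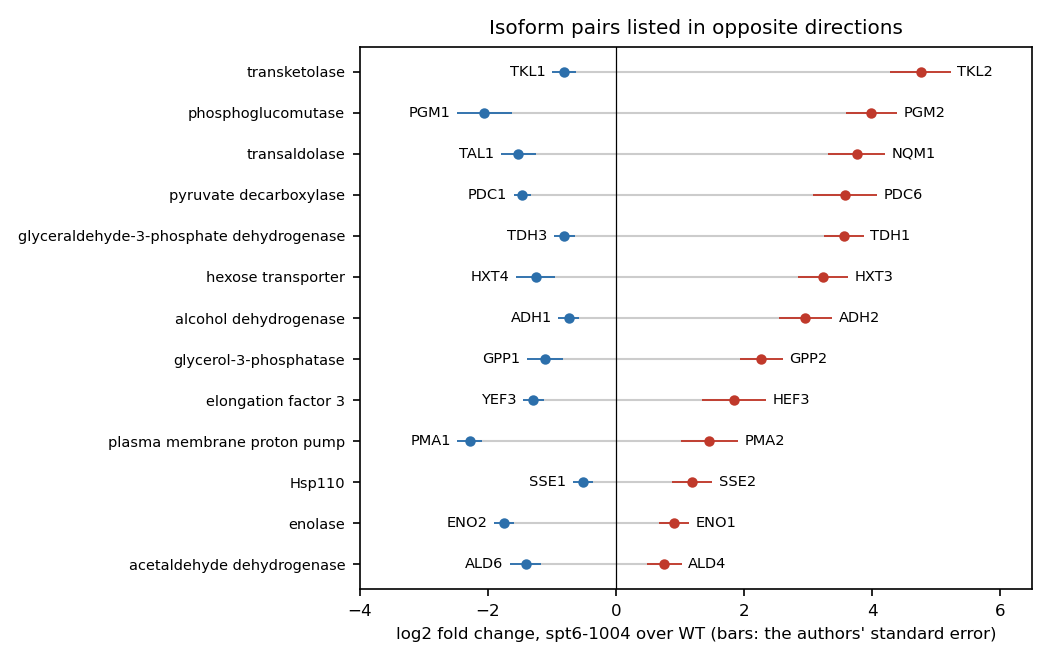
Log2 fold change of spt6-1004 over WT for both members of the 13 isoform pairs listed in opposite directions, with the authors' SE as bars, blue for the lower and red for the higher member. The higher members reach further from 0 than their partners in all pairs except PMA1 with PMA2, ENO2 with ENO1 and ALD6 with ALD4.

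Listed genes were then followed along the chromosomes. Among 5869 neighbouring pairs of genes that do not overlap, both were listed in 91 (1.55%), with 32 pairs both higher, 29 both lower and 30 opposite. Of all 5668 genes 12.2% were listed, so unrelated neighbours would both be listed in about 12.2% of 12.2% of pairs. No difference from that share was tested. Of the 609 neighbours of higher genes 10.5% were higher and 4.93% lower, and of the 737 neighbours of lower genes 4.07% were higher and 7.87% lower. The shares of all genes were 5.63% higher and 6.62% lower. Both genes were listed in 1.91% of tandem, 1.57% of divergent and 0.858% of convergent pairs. BIO3 and BIO4, which start 221 bases apart and point away from each other, were both higher, as were SPT2 and RAD4, in tandem 281 bases apart. Opposite values also stood side by side: ILS1, an isoleucine tRNA synthetase gene, was listed at -0.93 and its tandem neighbour SSA3, 237 bases away, at 5.28, the largest increase in the table.

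Genes listed in no pathway list numbered 154, of which 98 were higher and 56 lower. After INA1 and PGM1 the lowest were RTN1, for a protein that shapes the endoplasmic reticulum, at -1.93, the open reading frames YDR261W-B at -1.90 and YDR261W-A at -1.84, and SPF1, a transport ATPase of the endoplasmic reticulum, at -1.75, all named after their values were seen. The highest named open reading frames without a common name were YDL218W, YBL005W-B, YMR090W and YJR096W. YBL005W-B, YDR261W-B and YDR261W-A are frames of Ty retrotransposons, whose copies can share reads, so their own values are uncertain. Other Ty frames were listed in both directions, such as YJL113W at 1.45 and YDR210C-D at -1.32. In all, 5 identifiers had no entry in the RefSeq table and carry no annotation here.

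The spt6-1004 values can be set beside those of the other alleles, although all share the same WT libraries and no difference between alleles was tested. The authors' deposited table for spt6-S8A lists 23 genes, each of which is also listed for spt6-1004 in the same direction and with a larger size there, and 12 of them lie outside the 4 lists. SER3, at 4.71 (SE 0.29) in spt6-1004, was listed at 3.46 in spt6-S8A and, as the only gene of its table, at 2.75 in spt6-S8E. Values lay close for PCS60, a peroxisomal protein gene, at 1.34 and 1.25, for MVD1 at 0.81 and 0.76, and for TAL1 at -1.52 and -1.32. They lay further apart for PMA1, at -2.28 and -0.61, for EFB1, at -1.80 and -0.76, and for PTR2, at -1.37 and -0.68. RPN4, the activator of proteasome genes, was listed at 1.76 and 0.93, and PEP4 at 1.24 and 0.73.

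**Figure D5:**
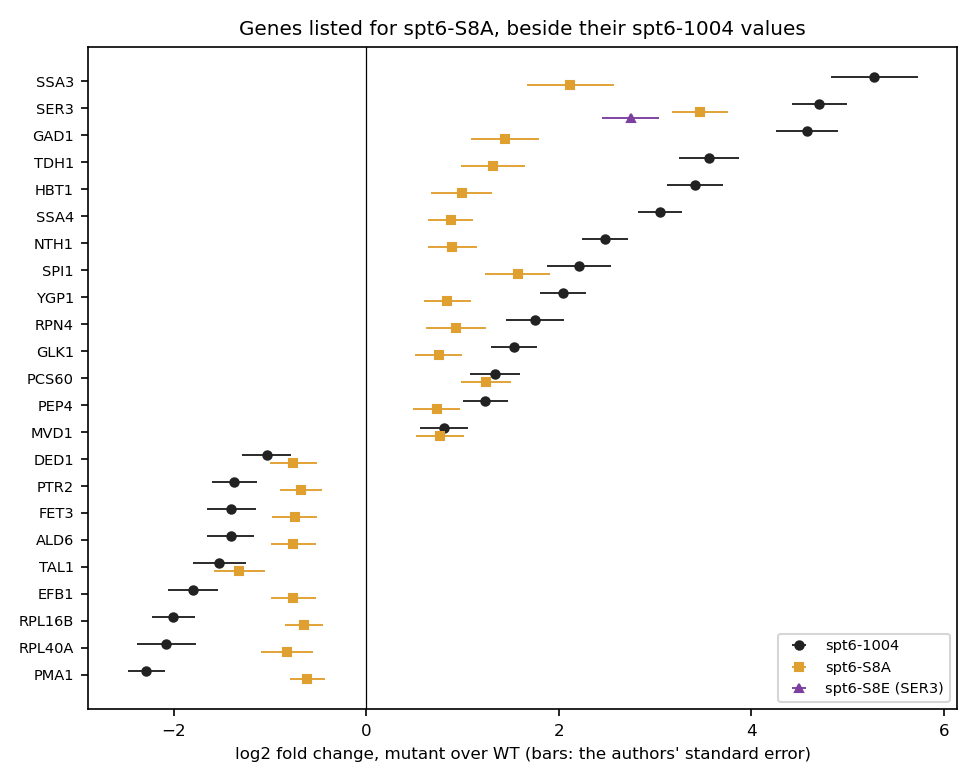
Log2 fold change over WT of the 23 genes listed for spt6-S8A (squares), beside their values for spt6-1004 (circles) and, for SER3, spt6-S8E (triangle), with the authors' SE as bars. Each circle lies further from 0 than its square, and circle and square are nearest for MVD1, PCS60 and TAL1.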

How the data were processed

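RNA of WT and spt6-1004 cultures was measured with 3 libraries each, in a series of 12 RNA libraries; 19 samples of chromatin immunoprecipitation and input were not analysed here. Per the labels' protocols, ribosomal RNA was depleted, ERCC spike-ins were added after it, and libraries were stranded. The submitters' processing notes name build sacCer3 and the tools SAMtools 1.3.1, STAR 2.5.2b, DESeq2 1.14.1, Salmon 0.8.1, cutadapt 1.10 and bedtools 2.26, without saying what each was used for.

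Per the file headers, the deposited table holds the authors' DESeq2 comparison: a base mean, which is a signal of unstated scaling, the log2 fold change, its standard error, the Wald statistic, and the p-value before and after adjustment. The deposited Wald statistic, a score, was in 694 of 694 rows the ratio of fold change (log2) to standard error. The authors' log2 fold change may have been shrunken towards 0, as this version of DESeq2 does by default, and no source used here gives the setting. The SE stayed small even at the lowest base means, at 0.457 for URA3 with a base mean of 0.833, as shrinkage would give. Shrinkage acts most on low genes, so sizes of change at low and high base means may not be strictly comparable. In 694 rows the base mean, multiplied by 12, came out whole within the same tolerance as below. Inverting the Benjamini-Hochberg formula gave 5668 adjusted genes, and the deposited adjusted p-value was then matched in 694 of 694 rows within a tolerance of 1e-06. Tested on simulated data with 200 changed genes, this step found the number of genes put in for 100% of 50 sets. The depth of each library is unknown, so no interval that needs it is given; 95% intervals are the log2 fold change with its standard error on the normal scale.

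No new test was made. The members and the lists were chosen with earlier results of these data known. Of the 64 lists, 4 were set aside, and the members of 1 other list are counted in the totals over lists but its own result is not reported here. After the values were seen, some older symbols in the lists were replaced by current ones and 5 wrong entries were removed, which changed only the numbers of annotated members, since none of these genes is listed. Genes were named by a rule: the 12 largest changes per direction outside the 4 lists, up to 4 members per list and direction by adjusted p, all listed members where a list had 5 or fewer, isoform pairs, and genes listed for the other alleles. Names beyond that rule were added after their values were seen, to complete a group. Names and positions came from RefSeq genes of assembly R64, where 689 identifiers matched and 5 did not. Strand was read from the systematic name. Neighbours were successive genes that do not overlap, with 117 overlapping pairs left out. Alternatives were a stricter adjusted p, a minimum fold change and a minimum base mean. Python 3.11.15 with pandas 2.3.3, numpy 2.4.6, scipy 1.17.1 and matplotlib 3.10.9 was used.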

Additional observations from a re-analysis of the deposited data

How the results depend on the processing

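The 319 higher genes numbered 205 once the adjusted p had to be under 0.01, 177 once the base mean had to reach 10, and 295 with a minimum log2 fold change of 1, while the 375 lower genes numbered 258, 353 and 307 under those settings. Of 55 lists with a majority in 1 direction, 48 kept it at the stricter adjusted p, 49 at the minimum fold and 48 at the minimum base mean. The majority turned for nucleotide synthesis at the stricter p, for amino acid biosynthesis at the minimum fold, and for sulfur metabolism and the glyoxylate list at the minimum base mean, so the higher share of those last lists rests on genes of low base mean. Isoform pairs in opposite directions fell from 13 to 10, 7 and 10 under the stricter p, the minimum fold and the minimum base mean, and adjacent listed pairs from 91 to 44, 67 and 50, and to 70 within 1000 bases; apart from that distance, the settings for pairs were chosen after seeing the data. No paired analysis was possible because the deposited table holds no values per library, and for the same reason no replicate could be left out. The planned share of promoters with a motif was not run, since no promoter sequence was used here.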
